A study of Mus musculus with 4 samples.

Results

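The genes described here are the fibroblast growth factor (FGF) ligands, the FGF receptors and the best known feedback and target genes of the pathway. They were taken by name: every probe whose gene name is Fgf with a number, Fgfr1 to Fgfr4 or Spry1 to Spry4, together with Fgfrl1, Fgfbp1, Dusp6, Etv1, Etv4, Etv5, Spred1 and Spred2. The rule found 38 of the 31806 gene names on the array, on 57 of 39397 probes with a value on every array. Of the 38 genes, 22 encode FGFs, of which 18 are secreted ligands and 4 are intracellular FGFs that are not secreted. The rule uses names and no measured value, though it was written with earlier results of these data known.

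Secreted FGFs bind receptor tyrosine kinases of the FGFR family together with heparan sulfate, and the activated receptor signals through the adaptor FRS2 to Ras and the MAP kinases. The ETS factors Etv1, Etv4 and Etv5 are typical transcriptional targets of this signal. Dusp6, which dephosphorylates ERK, and the Sprouty and Spred proteins, which dampen signaling toward Ras and Raf, are induced by the signal and restrain it. Mesenchymal cells are a known source of Fgf7 and Fgf10, whose main receptor is the epithelial form of Fgfr2.

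Mouse embryonic fibroblasts (MEFs) are mixed primary cultures grown from embryos. Total RNA of C57BL/6J MEFs in logarithmic growth, in DMEM with fetal bovine serum, was read on 4 single-color Agilent arrays of the mouse genome, all on 1 slide. The labels give a CycG2-/- culture (G2KO) with its CycG2+/+ wild type (WT; G2WT array), and a CycG1-/-CycG2-/- culture (DKO) with its CycG1+/+CycG2+/+ WT (G1G2WT array). CycG1 and CycG2 are the cyclins encoded by Ccng1 and Ccng2. Both mutations are in the germline, so every cell of a culture carries them, and all protein coding exons of Ccng1 were removed in the line crossed for DKO. Each label has 1 array, so no spread between cultures exists within a genotype, and no test between genotypes was run. How far a ratio can be trusted is limited by this number of arrays. The study ascribes raised Xist, an X-linked RNA of X inactivation, in its G2KO MEFs to their female origin. Embryo sex may thus also differ within the G2KO comparison, and it was not examined here.

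Levels are given as the signal of a probe over the 75th percentile of signals on its array. A level of 1 is therefore the 75th percentile, and a probe not well above background is called dim. Because probes differ in how well they hybridise, levels are compared between arrays for 1 probe and not between probes. Of a gene's probes the brightest, by mean log2 signal over the arrays, is given unless stated otherwise. A difference of at least 4-fold was called, and a ratio against a dim array is a lower limit ("at least"), set against the dimmest signal still flagged as well above background there, or against the probe's signal where that exceeded it. That dimmest signal was a level of 0.0066 on the G2KO array, 0.0072 on G2WT, 0.0073 on DKO and 0.0102 on G1G2WT. The share of probes well above background was highest on DKO, 72.2%, and lowest on G1G2WT, 65.0%. A gene above background on 1 array alone, near these levels, does not by itself show a difference. In RNA of a whole culture, fewer cells of a type and less RNA per cell cannot be told apart.

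Facts of the arrays bear on each value below. Ccng1 was dim on the DKO array and at least 228-fold lower than on the WT array of that comparison. The Ccng2 probe did not separate knockout from WT, with levels of 0.0910 on the G2KO-labelled array, 0.104 on the G2WT array, 0.0619 on DKO and 0.0806 on its WT. Over 24197 probes well above background on every array, the SD of log2 ratios was 1.02 between DKO and its WT, 0.859 between the G2KO-labelled array and the G2WT array, and 1.01 between both WT arrays. It was 0.535 between the G2KO-labelled array and the G1G2WT array, the most alike of these pairs. Arrays are called by their labels, and every direction in the G2KO comparison rests on labels that Ccng2 does not back. For Fgf5, Fgf7, Pdgfra, Sox2 and En2, which the study lists for its G2KO MEFs, the deposited labels give the direction opposite to the study's. If the labels of this pair were exchanged, each ratio of the G2KO comparison would turn its sign, the G2WT values would be those of a knockout, and the SD between WT arrays would be 0.535. Whether they were exchanged was not tested, and values are given under the labels as deposited. The comparison of the arrays labelled WT is given as a reference for how far cultures differ and measures 1 genotype only as far as those labels hold. These comparisons share arrays and are not independent of each other.

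The cultures also differed in the markers of cell types. Fibroblast markers (12 genes) summed to levels of 452 on the G2KO-labelled array, 336 on the G2WT array, 323 on DKO and 512 on its WT. Their medians were 17.6, 1.17, 6.21 and 25.8 in that order. Pdgfra, Fap and Lum, which mark mesenchymal fibroblasts, were dim on the G2WT array and on no other. In DKO, 5 of 13 fibroblast probes were at least 4-fold lower than in its WT and 1 higher, beside 3.99% and 3.93% of all probes. Among these, Pdgfra was at 0.0296 in DKO against 5.22 in its WT, and Dcn, the other way, at 49.0 against 2.95. Neural progenitor markers (8 genes) summed to 45.4 on the G2WT array and to between 1.497 and 2.24 on the others. On each array 4 to 6 of these genes were well above background, and Sox2 was so on the G2WT array alone. Mesothelial markers (12 genes) were all well above background on DKO, where they summed to 150, against sums of 0.732 to 1.63 and 5 to 7 genes on the other arrays, on which Wt1 and Upk3b were dim. Proliferation genes (6 genes, all above background) summed to 42.6, 80.3, 21.4 and 23.7 in the order G2KO, G2WT, DKO, G1G2WT. Epithelial markers summed to at most 0.487, with Epcam dim on every array, and macrophage markers to at most 0.771. Endothelial markers summed to between 3.08 and 4.43, nearly all of it from Kdr, at 3.00 to 4.36. Pecam1, Cdh5 and Tek were each at most 0.0822. The part of these differences in the results below was not tested.

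Between the G2KO-labelled array and the G2WT array, 6 of 39 member probes were at least 4-fold higher, for Fgf1, Fgf5, Fgf7, Fgf10, Fgf18 and Spry4, and 0 were lower. Of all 28272 probes compared, 3.58% were called higher and 1.92% lower. Between the WT arrays, 6 of 38 member probes, for Fgf5, Fgf6, Fgf7, Fgf10 and Fgf18, were called higher on the G1G2WT array and 0 lower, against 4.57% and 2.65% of all probes. Both of these comparisons share the G2WT array. Against both WT arrays at once, 0 of 37 member probes were called for the G2KO-labelled array in either direction, where 0.438% of all probes were higher and 0.0723% lower.

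In DKO MEFs, 4 of 42 member probes were at least 4-fold higher than in their WT, for Fgf13, Fgf18 and Fgf20, and 8 were lower, for Fgf5, Fgf6, Fgf10, Fgfr1, Etv1, Etv4 and Spry2. The background was 3.93% of probes higher and 3.99% lower. The balance of directions turned with the WT array: against G2WT, 7 member probes were higher and 2 lower in DKO, and against the mean of both WT arrays 6 were higher and 3 lower. The share of all probes called was not counted for these WT settings, so the turn cannot be read as particular to the members. Over all probes well above background on every array, the SD of log2 ratios was 1.14 between DKO and G2WT, against 1.02 between DKO and its WT. By a rule added after seeing the data, a call in the same direction against both WT arrays, there were 3 of 41 member probes higher, which belong to Fgf18 and Fgf20, and 2 lower, which belong to Etv1 and Spry2; 2.9% of all probes were higher by this rule and 1.42% lower. Both shares of members rest on few probes, and the Fgf18 pair shares part of its target sequence.

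**Figure D1:**
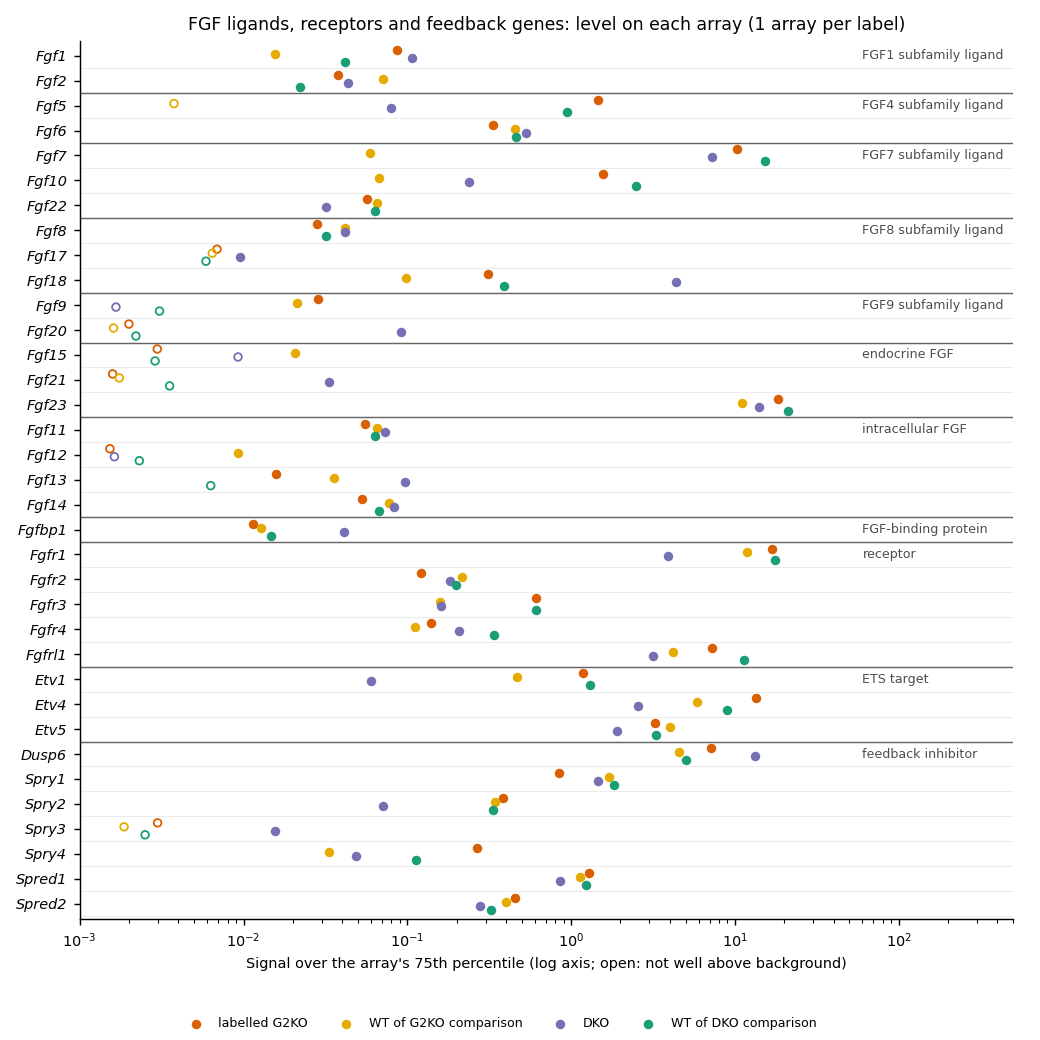
Level of each member gene on each array, as signal over the array's 75th percentile on a log axis, for the 35 genes whose brightest probe was well above background on at least 1 array; 1 point is 1 array, and open points were not well above background. Fgf5, Fgf7 and Fgf10 are lowest on the G2WT array, Fgf18 is highest and Etv1 and Spry2 are lowest on DKO.

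Among the ligands of mesenchymal cells, Fgf7 had a level of 10.2 on the G2KO-labelled array, 0.0593 on the G2WT array, 7.22 on DKO and 15.3 on its WT. Its probe lies on chromosome 2 of mm9 (125916134 to 125916193). A single array, G2WT, was low, and G1G2WT was 257-fold higher. The log2 ratio was 7.43 for the G2KO-labelled array and -1.08 for DKO, each against its own WT as labelled, but 6.93 for DKO against the G2WT array. The direction on the G2KO-labelled array is the opposite of the study's.

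Fgf10, a relative of Fgf7 that drives limb and lung budding, was measured on 10 spots (chromosome 13, 119580365 to 119580424), with an SD between spots of 0.039 to 0.121 on the log2 scale. Its levels were 1.56 on the G2KO-labelled array, 0.0672 on the G2WT array, 0.239 on DKO and 2.50 on its WT. The G2WT array was again the lowest, and DKO lay between both WT arrays. The log2 ratios to the own WT were 4.53 for the G2KO-labelled array and -3.39 for DKO, far beyond the spread between spots but smaller than the 5.22 that separated the WT arrays. Fgf5, of the FGF4 subfamily and best known for ending the growth phase of hair, was at 1.45 on the G2KO-labelled array, 0.0798 on DKO and 0.942 on its WT, and dim on the G2WT array (chromosome 5, 98705980 to 98706039). Fgf5 was at least 202-fold higher on the G2KO-labelled array than on that WT and 11.8-fold lower in DKO than in its own WT, yet at least 11.1-fold higher in DKO than on the G2WT array. The G2KO direction is again opposite to the study's. For Fgf5 and Fgf10 the direction of the DKO ratio thus depended on which WT array was used.

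Fgf18, which acts on cartilage and bone, was, beside Fgf20, a ligand called higher in DKO against either WT. Its levels were 4.39 in DKO, 0.390 in its WT, 0.309 on the G2KO-labelled array and 0.0975 on the G2WT array. DKO was 11.2-fold above its own WT and 45.0-fold above the other WT. A second probe gave 2.93 in DKO and 0.231, 0.183 and 0.0253 on the other arrays in the same order, with log2 ratios of 3.67 and 6.86. Both probes lie on chromosome 11 and overlap by 26 bases, shown here because the pair is then not 2 independent measurements of the transcript:
Fgf18, shared by both probes: acgaggaaactgcgagaaaccaaagt
The WT arrays differed at Fgf18 as well, by log2 ratios of 2.001 and 3.19 in the order of the probes, so the 4-fold call between the G2KO-labelled array and its WT held for the second probe (2.86) and was missed by the first (1.66).

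Fgf20, of the FGF9 subfamily, was above background in DKO alone, at a level of 0.0914 (chromosome 8, 41365079 to 41365138), at least 8.92-fold above its own WT and at least 12.8-fold above the other. With normexp background correction the log2 ratio to its own WT was 1.74, under the call. A second Fgf20 probe was dim on all 4 arrays. The probes overlap by 28 bases and differ there at 1 position, G23T, counted from 1 at the 5′ end of the shared stretch with the base of the dim probe first; the capital marks it:
Fgf20, probe dim on all arrays: caaagacctactgatgtacactGgatga
Fgf20, probe above background in DKO: caaagacctactgatgtacactTgatga
The Fgf20 signal in DKO therefore rests on 1 of 2 probes. Fgf9 itself was at 0.0284 on the G2KO-labelled array and 0.0212 on the G2WT array, and dim on DKO and its WT.

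The remaining secreted ligands gave weak signals or small differences. Fgf1, an FGF that binds all the receptors, was at 0.0865 on the G2KO-labelled array, 0.0157 on the G2WT array, 0.106 on DKO and 0.0414 on its WT. It was 5.52-fold higher on the G2KO-labelled array than on its WT (log2 2.47), a call lost with normexp background correction (1.202) and against the mean of both WT arrays (1.77). Its log2 ratio of 1.36 for DKO was under that between the WT arrays, 1.40, while DKO was 6.77-fold above the G2WT array. Fgf2, the basic FGF used as a fibroblast mitogen, was measured on 10 spots (SD 0.073 to 0.159, log2) at 0.0379, 0.0714, 0.0435 and 0.0222 in the order G2KO, G2WT, DKO, G1G2WT; the WT arrays stood farthest apart, at a log2 ratio of -1.68. Fgf8 lay between 0.0280 and 0.0414 and Fgf22 between 0.0320 and 0.0654 over the arrays, and neither differed 4-fold in any comparison. Fgf21, an endocrine FGF induced by metabolic stress, was above background in DKO alone, at 0.0332, at least 3.24-fold above its own WT and at least 4.64-fold above the other. Fgf15, the endocrine FGF of the gut, was above background only on the G2WT array, at 0.0205. Fgf17 was so only on DKO, at 0.0096, which lies under the dimmest flagged signal on G1G2WT. Fgf3, Fgf4 and Fgf16 were dim on every array, and further probes of Fgf1, Fgf8, Fgf14, Fgf22 and Fgfr4 were dim on at least 3 arrays.

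The probes of Fgf23 and Fgf6 disagreed. One Fgf23 probe gave 18.3, 11.1, 14.0 and 21.1 in the order G2KO, G2WT, DKO, G1G2WT, while the other was dim on all 4 arrays. Fgf23 is the phosphate hormone of bone. The bright probe begins with a run of CA repeats 20 bases long, in capitals among its first 30 bases:
Fgf23, bright probe, bases 1 to 30: cCACACACACACACACACACAtacatgtaa
Runs of at least 16 bases with a period of 2 to 4 were found in 2 of the 57 member probes (3.51%) and in 310 of all 39429 probes (0.786%). What the repeat adds to the signal was not tested, and the level of Fgf23 is given for that probe only. One Fgf6 probe was at 0.332, 0.457, 0.528 and 0.462 with no 4-fold difference, and the other was above background on the G1G2WT array alone, at 0.0833. The call of Fgf6 as lower in DKO came from the latter probe.

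Of the intracellular FGFs, which bind voltage-gated sodium channels and are not secreted, Fgf13 differed most. It was at 0.0157 on the G2KO-labelled array, 0.0359 on the G2WT array and 0.0963 on DKO, and dim on the WT of DKO. Fgf13 in DKO was at least 9.40-fold above its own WT but 2.68-fold above the other WT, so the 4-fold call depended on the WT array, and it was lost with normexp (log2 1.66). Fgf11 (0.0550 to 0.0726) and Fgf14 (0.0527 to 0.0828) differed by less than 4-fold everywhere. Fgf12 was above background only on the G2WT array, at 0.0092, which lies under the dimmest flagged signal on G1G2WT. Fgfbp1, which releases FGFs from the matrix, was at 0.0412 on DKO and between 0.0115 and 0.0148 on the other arrays, which are 2.79-fold and 3.25-fold over its own and the other WT and under the call.

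**Figure D2:**
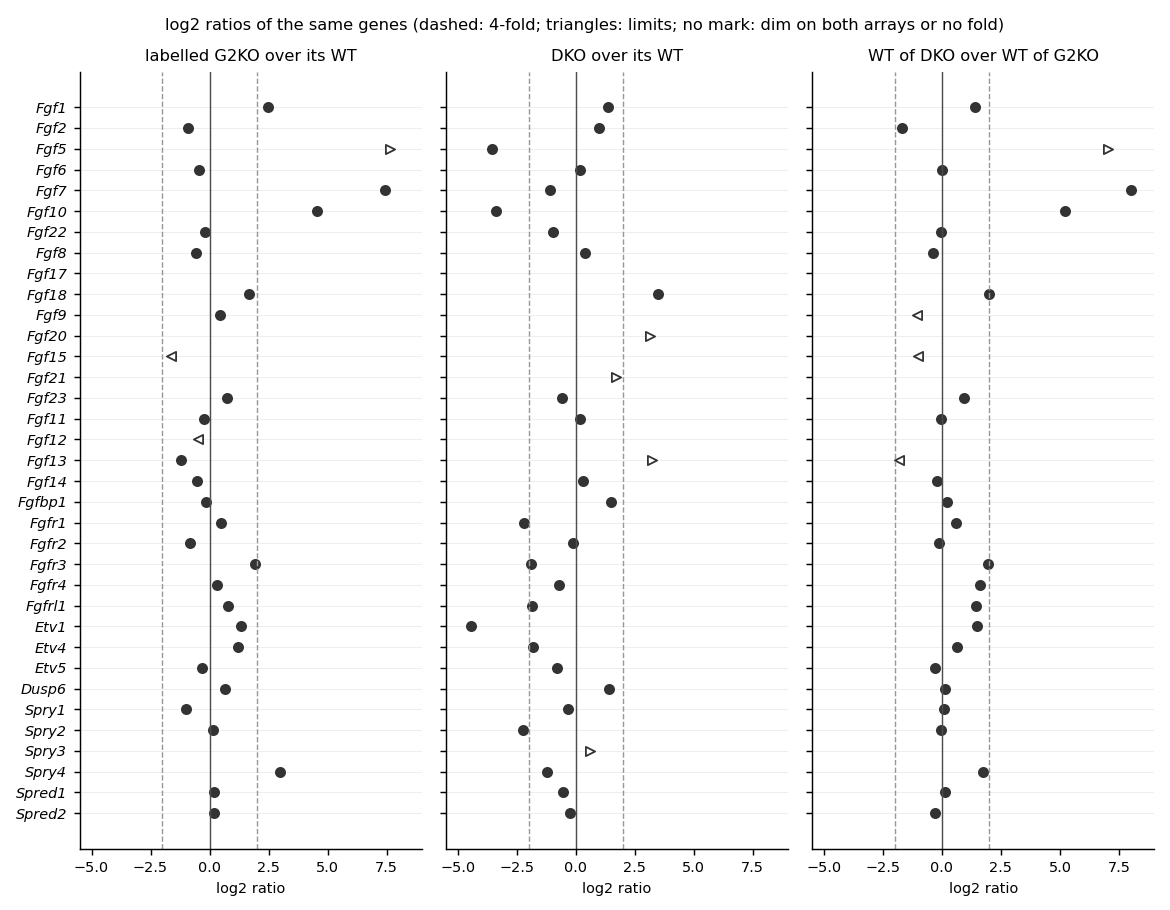
log2 ratio of each member gene in the G2KO-labelled array over its WT, DKO over its WT, and the WT of DKO over the WT of G2KO. Filled circles were measured on both arrays, triangles are limits that point away from 0, and dashed lines mark 4-fold; Fgf5, Fgf7 and Fgf10 lie far to the right in the left and right panels, and Etv1 lies farthest to the left in the middle panel.

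Fgfr1, the FGF receptor typical of mesenchyme, was lowest in DKO. Its brightest probe (chromosome 8, 26685072 to 26685131) gave 16.7 on the G2KO-labelled array, 11.8 on the G2WT array, 3.89 on DKO and 17.7 on its WT. A second probe gave 1.85, 1.30, 0.390 and 2.05. DKO was 4.54-fold below its own WT and 3.04-fold below the other by the first probe, with log2 ratios of -2.39 and -1.74 for the second, so both probes put DKO lowest but the 4-fold call held against its own WT only. The remaining Fgfr1 probe stayed between 0.423 and 0.4997 on all arrays, and its last 30 bases hold a run of 17 bases with a period of 4, in capitals:
Fgfr1, flat probe, bases 31 to 60: ttgtttgtTTGGTTGGTTGGTTGGTctttt
This probe did not show the difference that the others showed, and the cause was not tested.

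The other receptors did not pass 4-fold in any comparison of a knockout with its own WT. Fgfr3, which restrains growth of cartilage, had levels of 0.607, 0.159, 0.162 and 0.606 in the order G2KO, G2WT, DKO, G1G2WT. The arrays fell in pairs, with the G2KO-labelled array beside the WT of DKO and DKO beside the WT of G2KO; the log2 ratio was -1.91 for DKO against its own WT and 0.02 against the other. Fgfr3's second, weaker probe gave the same pairs with a smaller difference, -0.83 for DKO against its WT. Fgfrl1, a receptor-like protein without a kinase domain, was at 7.29, 4.20, 3.18 and 11.4, and DKO was 3.58-fold below its own WT and 1.32-fold below the other. Fgfr2 lay between 0.121 and 0.216, its 10-spot probe put the G2KO-labelled array lowest as well, and the probes share 42 bases. Fgfr4 lay between 0.111 and 0.338, with G2WT at the lower and G1G2WT at the upper end.

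Of the ETS genes, Etv1 was called lower in DKO against either WT, Etv4 on 1 of 2 probes against its own WT only, and Etv5 against neither. Etv1 had levels of 1.19 on the G2KO-labelled array, 0.466 on the G2WT array, 0.0600 on DKO and 1.30 on its WT (chromosome 12, 39593054 to 39593113). DKO was the lowest array, 21.7-fold below its own WT and 7.76-fold below the other. The WT arrays differed 2.80-fold, which is less than either. A second Etv1 probe was near the floor, above background only on the G2KO-labelled array, at 0.0145, and gave no ratio for DKO.

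Etv4 was at 13.5, 5.83, 2.56 and 8.99 in the order G2KO, G2WT, DKO, G1G2WT. DKO was again lowest, with log2 ratios of -1.81 and -1.19 against its own and the other WT. A second Etv4 probe gave -2.05 and -1.38 and carried the 4-fold call. Etv5 was at 3.24, 4.03, 1.90 and 3.31, and its log2 ratios for DKO, -0.80 and -1.08, exceeded the -0.28 between the WT arrays without reaching 4-fold. All 3 genes were thus lower in DKO than on any other array, at sizes from 1.74-fold to 21.7-fold against the own WT.

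The feedback inhibitors did not follow 1 direction. Spry2 was at 0.385 on the G2KO-labelled array, 0.343 on the G2WT array, 0.0711 on DKO and 0.334 on its WT (chromosome 14, 106291845 to 106291904). Arrays other than DKO lay within 1.15-fold of each other, and DKO was 4.70-fold below its own WT and 4.82-fold below the other. With normexp the log2 ratio to its own WT, -1.69, was under the call. Dusp6, in contrast, was highest in DKO, at 13.3 against 7.11, 4.54 and 5.01 on the G2KO-labelled array, its WT and the WT of DKO. Its 2.65-fold and 2.93-fold excess over the WT arrays was under the 4-fold call, while those WT arrays differed 1.103-fold.

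Spry4 was at 0.265 on the G2KO-labelled array, 0.0334 on the G2WT array, 0.0486 on DKO and 0.113 on its WT. It was 7.94-fold higher on the G2KO-labelled array than on its WT and 2.36-fold higher than on the other WT. Spry1 was lowest on the G2KO-labelled array, at 0.843 against 1.70, 1.45 and 1.82 on the others, a log2 ratio of -1.01 to its own WT. Spry3 was above background in DKO alone, at 0.0156. Spred1, between 0.853 and 1.29, and Spred2, between 0.277 and 0.455, were lowest in DKO with log2 ratios of -0.53 and -0.23 to its own WT, and a second Spred1 probe gave -0.48.

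**Figure D3:**
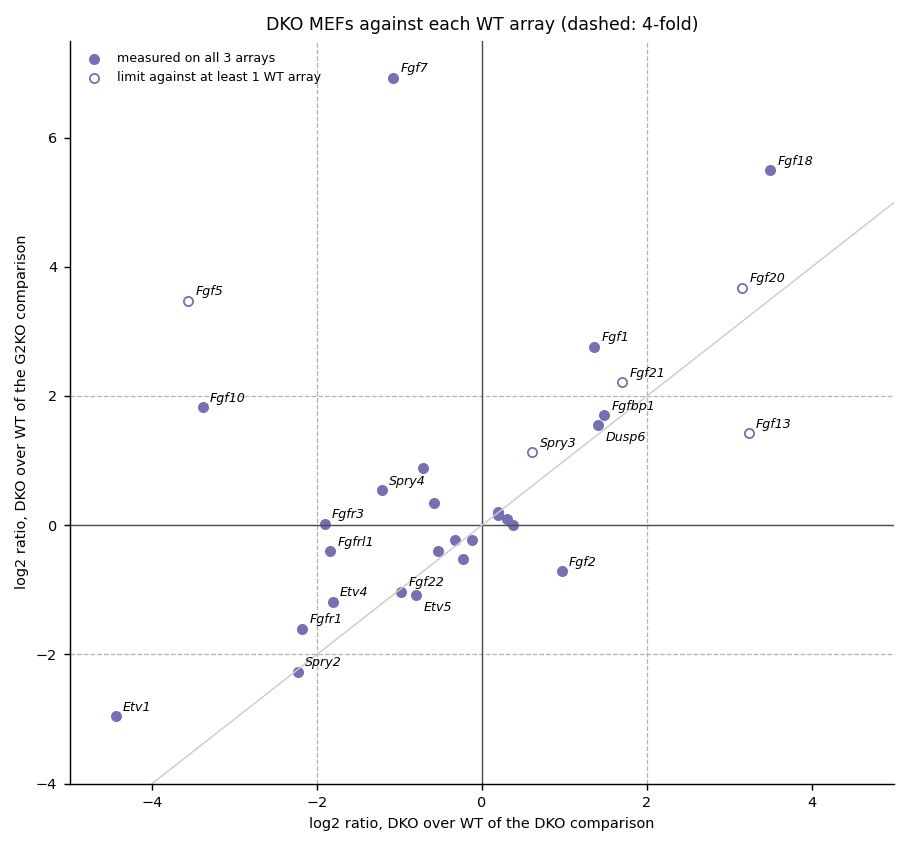
log2 ratio of each member gene in DKO over the WT of the DKO comparison (horizontal) and over the WT of the G2KO comparison (vertical), with 4-fold dashed and equal ratios on the diagonal; open points are limits against at least 1 WT array. Fgf18 and Fgf20 lie past 4-fold at the upper right and Etv1 and Spry2 at the lower left, whereas Fgf5, Fgf7 and Fgf10 lie at the upper left, lower than 1 WT array and higher than the other.

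Over the member genes measured on both arrays, the median log2 ratio was -0.59 for DKO against its WT (27 genes, 18 lower and 9 higher), beside -0.02 over 19999 genes. Against the G2WT array it was 0.02 (27 genes, 13 lower and 14 higher), so the shift was seen against its own WT and not against the other. It was 0.26 for the G2KO-labelled array against its WT (28 genes) beside -0.17 over all genes, and 0.18 between the WT arrays (26 genes) beside -0.06. The median size of the ratio, without its sign, was 1.08 among members and 0.395 among all genes for DKO, 0.683 and 0.406 for the G2KO-labelled array, and 0.479 and 0.435 between the WT arrays. Of 26 member genes measured on DKO and both WT arrays, 11 (42.3%) were lower in DKO than on either WT and 7 (26.9%) higher, beside 37.0% and 30.6% of all genes. Against both WT arrays the number of members lower in DKO was therefore near that of genes in general, although the median distance below the nearer WT was 0.80 on the log2 scale for those members and 0.31 for all such genes.

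**Figure D4:**
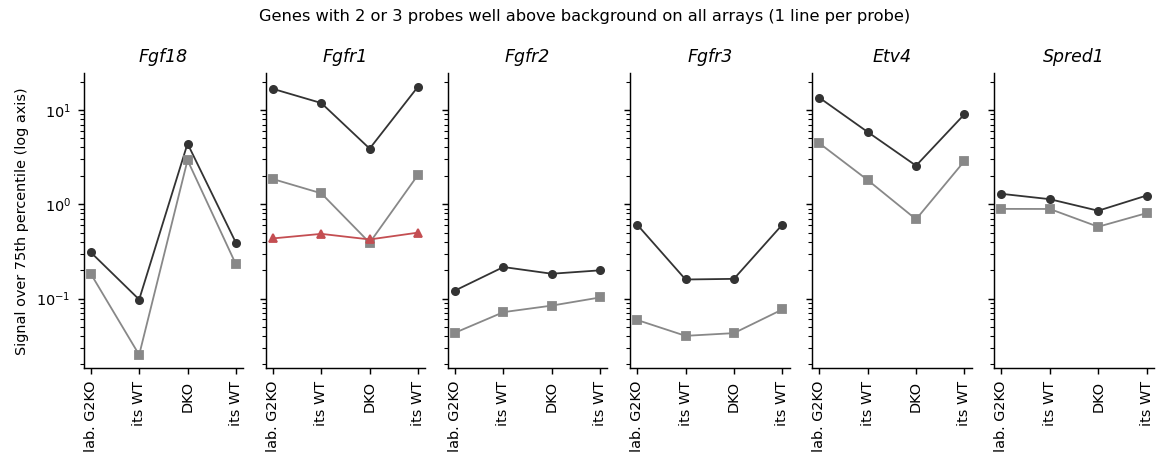
Level on each array, on a log axis, of every probe well above background on all arrays for the 6 member genes that have 2 or 3 of them; 1 line is 1 probe. The probes of Etv4 and Spred1 run nearly in parallel, those of Fgf18 part on the G2WT array, and the remaining Fgfr1 probe (triangles) stays flat where the others drop in DKO.

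Probes of the same gene were the only check on a single value besides replicate spots. The median SD between replicate spots of a probe was 0.058 to 0.093 on the log2 scale. Over the 6 genes with several probes measured on all arrays, the log2 ratios of a gene's probes spanned a median of 0.424 for the G2KO-labelled array, 0.209 for DKO and 0.621 between the WT arrays. The largest span, 2.15, was that of Fgfr1 in DKO.

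Genes around the FGF pathway were described by a list of 59 that are no members. No probe of the 20 adaptor and Ras-MAPK genes, among them Frs2 and Grb2, passed 4-fold in a knockout against its own WT (0 of 34 for the G2KO-labelled array and 0 of 33 for DKO) or between the WT arrays (0 of 34). Of all probes compared, 3.58% were called higher and 1.92% lower on the G2KO-labelled array, and 3.93% and 3.99% in DKO. Between the WT arrays these shares were 4.57% and 2.65%. At shares of this size few calls would be found among 33 or 34 probes of any kind, so 0 says little. In the group of 13 co-receptors and binding proteins, 5 of 15 probes were higher on the G2KO-labelled array than on its WT and 0 lower, 0 of 17 were higher in DKO than in its WT and 7 lower, and 5 of 17 were higher on the WT of DKO than on the other WT.

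Flrt2 and Flrt3, membrane proteins that interact with FGF receptors, were the genes called here on the G2KO-labelled array by their brightest probes, and with Sdc4 the genes called in DKO. Flrt2 was at 3.92 on the G2KO-labelled array, 0.181 on the G2WT array, 0.340 on DKO and 4.32 on its WT, and Flrt3 at 3.51, 0.241, 0.332 and 3.67. Both were high on the arrays on which Fgfr3 and Fgf10 were high, and DKO was within a log2 ratio of 0.91 and 0.46 of the G2WT array. Sdc4, a heparan sulfate proteoglycan, was at 5.71, 7.27, 1.91 and 10.4, with DKO lowest at log2 ratios of -2.44 and -1.93.

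Past 4-fold on the G2KO-labelled array were further Dusp9, an ERK phosphatase (log2 ratio 5.39, and 4.79 between the WT arrays), Sulf1, which removes sulfate from heparan sulfate (3.22, and 2.62 between the WT arrays), Fos, an immediate early gene (2.52, and 0.15 between the WT arrays), and Hs6st2, a heparan sulfate sulfotransferase (2.03, and 2.23 between the WT arrays). Against the G1G2WT array the log2 ratio of Fos was 2.37 and that of Hs6st2 -0.21. For DKO the other call was Spred3 (2.31), a relative of Spred1 and Spred2, which differed by 0.34 from the other WT. Over the list, 10 of 78 probes were higher and 0 lower on the G2KO-labelled array, 1 of 79 higher and 7 lower in DKO, and 9 of 80 higher and 3 lower between the WT arrays. The shares of all probes given above are the background for these counts and for those by group. By group, the 10 heparan sulfate genes had 3 of 13 probes higher on the G2KO-labelled array, 0 called in DKO and 3 higher between the WT arrays. The 8 other feedback inhibitors had 1 of 8 probes higher in each comparison. The 8 immediate targets had 1 higher on the G2KO-labelled array, 0 called in DKO and 3 lower on the G1G2WT than on the G2WT array. The median log2 ratio of the whole list was -0.08, -0.15 and 0.02 in these comparisons.

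Promoters of the ligands with the widest differences are shown as the 250 bases before the transcription start from RefSeq (GRCm38.p6), on the strand of the gene. Entries were found for 28 of the 38 genes, with 37 starts. Sought on both strands were the ETS core CCGGAA, the AP-1 site TGANTCA and the cAMP response element TGACGTCA, and matches are in capitals:
Fgf5, chr5:98253934-98254183, plus strand: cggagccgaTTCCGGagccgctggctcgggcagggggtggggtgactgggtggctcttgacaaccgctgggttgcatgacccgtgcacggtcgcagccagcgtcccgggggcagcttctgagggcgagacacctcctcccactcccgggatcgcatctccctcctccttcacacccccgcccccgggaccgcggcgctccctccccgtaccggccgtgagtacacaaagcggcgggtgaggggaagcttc
Fgf7, chr2:126034408-126034657, plus strand: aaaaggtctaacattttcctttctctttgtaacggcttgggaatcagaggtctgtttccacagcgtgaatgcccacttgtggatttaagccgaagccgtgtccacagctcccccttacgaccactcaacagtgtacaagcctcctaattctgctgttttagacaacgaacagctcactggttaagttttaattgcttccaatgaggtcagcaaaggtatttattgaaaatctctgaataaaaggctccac
Fgf10, chr13:118714449-118714698, plus strand: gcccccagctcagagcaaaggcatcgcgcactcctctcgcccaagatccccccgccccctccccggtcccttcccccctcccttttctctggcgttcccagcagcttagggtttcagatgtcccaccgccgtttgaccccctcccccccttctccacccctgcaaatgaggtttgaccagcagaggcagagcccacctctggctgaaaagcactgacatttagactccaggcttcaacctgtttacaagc
Fgf18, chr11:33147401-33147650, minus strand: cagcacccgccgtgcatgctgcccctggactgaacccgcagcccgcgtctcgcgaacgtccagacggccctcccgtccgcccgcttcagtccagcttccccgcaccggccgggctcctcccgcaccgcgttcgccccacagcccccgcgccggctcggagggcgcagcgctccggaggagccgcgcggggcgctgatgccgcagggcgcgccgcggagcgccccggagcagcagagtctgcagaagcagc
Fgf5 holds 1 match to the ETS core, on the strand opposite to the gene, and the other 3 windows hold none of these letters. The ETS core was found in 4 of 37 member windows, those of Fgf5, Fgf12, Fgfr4 and Fgfrl1, and in 12.03% of all 32851 windows. AP-1 matches were in 2 member windows and 6.75% of all, and the cAMP response element was in 0 and 1.55%. The windows also differed in base composition, with 43.6% G and C for Fgf7, 61.2% for Fgf10, 70.8% for Fgf5 and 77.2% for Fgf18, beside a median of 62.4% among members and 52.4% among all. A match is a description of sequence, and binding was not measured here.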

How the data were processed

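Total RNA of 4 MEF cultures was hybridised to single-color Agilent arrays. The authors extracted spot intensity with Agilent Feature Extraction (10.7.3.1 in the file headers, 10.5.1.1 in the submitters' processing notes), which subtracted background within each array and flagged spots well above it. The deposited value table holds the same intensity, unscaled. The labels give single-color arrays throughout, whereas the methods describe dye swaps for G2KO. G1KO MEFs were not analysed here.

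Control spots (1377 per array) and outlier spots (107 to 140) were left out. The log2 of the deposited intensity was expressed over each array's 75th percentile, with spots of a probe averaged. No spot was saturated. Probes dim on both arrays got no ratio. Calls were at least 4-fold, with 1 array per label, and no p-value was computed. Between 65.0% and 72.2% of probes were well above background on an array, and 33 of 57 member probes were so on all arrays, 15 on some and 9 on none. Positions are mm9 as in the files; the exon or UTR at a probe was not determined. Of 57 member probes, 54 carried a RefSeq transcript, all with the same symbol in a table of GRCm38.p6.

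The members and lists were chosen with earlier results of these data known. Every member above background on at least 1 array is named, with the probe of highest mean log2 signal, and pathway genes past 4-fold in a knockout comparison. The ratio calculation was checked on simulated data whose noise was far smaller than the differences between these arrays. That checks the calculation only and does not show how often a call here is false. Alternatives were normexp (offset 50, limma 3.58.1, R 4.3.3), quantile normalization, median or no scaling, other filters on dim probes, 2-fold and 10-fold thresholds, other WT arrays and other probe summaries. Python 3.11.15, numpy 2.4.6 and pandas 2.3.3 were used.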

Additional observations from a re-analysis of the deposited data

Results flagged for a closer look

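Fgf5 and Fgf10 drew attention because the comparisons went opposite ways under the labels as deposited. Were the labels of the G2KO pair exchanged, both genes would be lower in both knockout comparisons. Whether they were exchanged was not tested, and for Fgf5 the study lists the other direction in G2KO MEFs. The log2 ratio of Fgf5 was at least 7.661 for the G2KO-labelled array and -3.561 for DKO, each against its own WT. That of Fgf10 was 4.534 for the G2KO-labelled array and -3.390 for DKO. The difference between the comparisons was not tested, since each label has 1 array, and both genes differed between the WT arrays by as much or nearly so (at least 7.04 and 5.22).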

How the results depend on the processing

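The 6 member probes called for the G2KO-labelled array became 1 against the G1G2WT array, 3 against the mean of both WT arrays, 15 at 2-fold, 3 at 10-fold and 0 when a call against both WT arrays was asked for, a rule chosen after seeing the data. The 12 probes called for DKO became 7 with normexp, 21 at 2-fold, 6 at 10-fold and 5 against both WT arrays. The 6 between the WT arrays became 16 at 2-fold. With normexp the calls among all probes also fell, in DKO from 1115 higher and 1131 lower to 630 and 561. On the G2KO-labelled array they fell from 1013 and 542 to 469 and 243, and between the WT arrays from 1254 and 727 to 630 and 389. Shares of all probes at 2-fold and 10-fold are not given here, so those member counts have no background. By the brightest probe of each gene, normexp lost the calls of Fgf1 on the G2KO-labelled array and of Fgf13, Fgf20 and Spry2 in DKO. Between the WT arrays it lost that of Fgf18 (1.662). The member totals count every probe, so more calls were lost in DKO than are named here. The same holds for the G2KO-labelled array, where 6 became 4. Other settings kept the member totals within 1.5 times. For DKO, though, the balance turned from 4 higher and 8 lower to 7 higher and 2 lower against the other WT. Against the mean of both it turned to 6 and 3. The share of all probes called against the other WT or the mean of both was not counted. The median log2 ratio of members for the G2KO-labelled array, 0.257, was 0.7512 without scaling and -0.1593 against the other WT. For DKO, -0.587 became -0.3239 without a filter on dim probes, 0.02246 against the other WT, -0.2260 against the mean of both and -0.8011 with the median over probes. Between the WT arrays, 0.180 became -0.006026 with median scaling and 0.4231 without scaling. Without scaling the median of all probes moved from -0.16 to 0.33 for the G2KO-labelled array, so changes there are relative to that shift, and the share of higher among called probes moved from 65.1% to 81.0%; between the WT arrays it moved the median from -0.06 to 0.18, and median scaling to -0.25. Against the other WT array the log2 ratio turned to -0.5748 for Fgf7 and -0.6838 for Fgf10 on the G2KO-labelled array, and to at least 3.477 for Fgf5 and 1.828 for Fgf10 in DKO, where Fgf5 was 0.4234 against the mean of both. No paired analysis was possible because each label has 1 array and no replicate number. Low signal limits the 9 member genes above background on 1 to 3 arrays, for which some ratios are limits or missing.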
